A study of Homo sapiens with 12 samples.

Results

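The microRNAs described here are the strands of the miR-130, miR-301 and miR-454 hairpins. They were taken as every tested row named for miR-130a, miR-130b, miR-301a, miR-301b or miR-454. This gave 8 strands of the 952 microRNAs found in either of 2 tables, namely the 3p and the 5p strand of 4 hairpins, and all 8 were in both tables. miR-130a was not analysed here.

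Small RNA was sequenced from K562, a human erythroleukaemia cell line, in 12 libraries, 3 for each of 4 groups, which the depositors call biological triplicates. Cells given a guide to CYRANO, a long non-coding RNA, form the group sgCYRANO and were compared with cells given a non-targeting guide (sgNT). Cells with the genotype ZSWIM8-/- (ZSWIM8 KO) were compared with wild type cells (WT), and the labels list no guide for either of these groups. Whether the ZSWIM8 KO line is 1 clone is not stated in the labels. Values came as the authors' deposited table of each comparison, with no values of single libraries, so each level below is a group mean and its spread over libraries is unknown.

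MicroRNAs guide Argonaute proteins to RNAs that pair with the seed, bases 2 to 8 of the microRNA. Each hairpin is cut into a duplex of a 5p and a 3p strand, of which Argonaute keeps 1 strand and the other is lost. In this family the 3p strands carry the shared seed, and reported targets of members include the TGF-beta receptor TGFBR2. Target-directed microRNA decay removes a loaded strand when a target pairs with it extensively, and ZSWIM8 is the substrate receptor of the ubiquitin ligase that acts in it. CYRANO plays this part for miR-7-5p.

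The mature sequences are shown because the seed, in capitals, is what separates the 3p from the 5p strands. They are RefSeq entries of GRCh38.p14, in which 7 of the 8 strands were matched, miR-301b-5p being the exception.
hsa-miR-130b-3p: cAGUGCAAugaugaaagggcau
hsa-miR-454-3p: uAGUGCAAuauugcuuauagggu
hsa-miR-301b-3p: cAGUGCAAugauauugucaaagc
hsa-miR-301a-3p: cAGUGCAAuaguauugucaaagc
hsa-miR-130b-5p: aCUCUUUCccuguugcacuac
hsa-miR-301a-5p: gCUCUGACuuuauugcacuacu
hsa-miR-454-5p: aCCCUAUCaauauugucucugc

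All 4 family 3p strands had the seed AGUGCAA. They were the only strands with it among the 865 tested microRNAs whose sequence was matched, of 952 tested. The 3 matched 5p strands had seeds of their own, which no other tested and matched microRNA shared. Outside the seed the 3p strands diverged. The miR-301a-3p and miR-301b-3p sequences were identical at 21 of 23 positions and differed by A10G and G11A, with positions counted from the 5′ end and miR-301a-3p given first. The miR-130b-3p strand shared its first 12 bases with miR-301b-3p, whereas miR-454-3p matched it at 10 of 22 positions. How reads that match several of these strands were assigned was not stated in the labels or headers, so the split between miR-301a-3p and miR-301b-3p is uncertain.

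The hairpins are shown with both mature strands in capitals, because the change of the miR-130b hairpin below differed between its strands. MIR301B is not shown because the RefSeq entries used did not hold it.
MIR130B: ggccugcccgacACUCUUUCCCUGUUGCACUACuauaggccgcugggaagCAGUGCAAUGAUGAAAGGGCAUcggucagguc
MIR301A: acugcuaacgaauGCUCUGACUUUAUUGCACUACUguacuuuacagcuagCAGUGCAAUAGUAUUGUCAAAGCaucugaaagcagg
MIR454: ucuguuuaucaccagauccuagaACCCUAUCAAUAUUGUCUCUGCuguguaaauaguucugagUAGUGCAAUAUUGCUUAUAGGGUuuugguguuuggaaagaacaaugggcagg
The 5p strands of miR-130b and miR-301a carry UUGCACU, the reverse complement of the family seed, at bases 13 to 19, whereas miR-454-5p does not hold these letters.

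The genes lie at a pair of loci in GRCh38 (GENCODE 29). MIR301B, at chromosome 22, 21652981 to 21653058, is followed after 245 bases by MIR130B, at 21653304 to 21653385, both on the + strand within the non-coding gene AP000553.1. MIR301B lies in an intron of its 1 spanning transcript, and MIR130B overlaps the edge of an exon without lying wholly inside it. MIR454, at chromosome 17, 59137758 to 59137872, and MIR301A, at 59151136 to 59151221, are 13263 bases apart on the - strand within SKA2, a protein-coding gene of the mitotic spindle and kinetochore complex. Neither overlaps an exon of the 10 SKA2 transcripts that span it. No hairpin outside the family lay within 10 kb on the same strand among the RefSeq entries used. These entries lack the MIR301B hairpin, so they may lack others as well.

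Depth, cell identity and the check of the perturbations were as follows. Library totals, read from the steps between the lowest group means, ranged from 860000 to 2490000 reads. Group totals were 5490000 for sgNT, 5290000 for sgCYRANO, 3810000 for WT and 7060000 for ZSWIM8 KO. These totals count reads of the tested microRNAs only, not all reads sequenced. Over those microRNAs the CPM (counts per 1000000 of these reads) of each group summed to 1000000. All 4 erythroid marker strands were measured, at 93.4 CPM or more in each group. The myeloid marker strand miR-223-3p was at 844.3 CPM or more. Of the 3 strands that the design listed as lymphoid markers, miR-142-3p was at 2331 CPM or more. The strand miR-155-5p had 0.899 CPM with sgNT and 0.180 with sgCYRANO and was not tested for WT and ZSWIM8 KO. The third, miR-150-5p, was not analysed here. The first 2 thus did not go together as markers of 1 cell type. Of the 10 markers of epithelial, liver, muscle and neural cells 6 were measured, and the highest of these, miR-200c-3p, had group means from 68.8 to 94.6 CPM. According to the authors' deposited table, the decay substrate miR-7-5p rose by 2.52 ± 0.09 on the log2 scale in sgCYRANO and by 2.35 ± 0.14 in ZSWIM8 KO (edgeR, adjusted p = 5.03e-174 and 8.48e-61). The table headers do not state the direction of the fold changes, which were read as sgCYRANO over sgNT and as ZSWIM8 KO over WT. In the opposite reading every sign and every rise or fall below turns, and the paired groups swap levels. Each ± gives a standard error calculated from the deposited p.

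The family 3p strands stood at moderate levels, and miR-130b-3p was the most abundant of them. Its group mean was 314.3 CPM with sgNT, 345.3 with sgCYRANO, 306.7 for WT and 453.4 for ZSWIM8 KO. The strand miR-454-3p had 142.5, 141.9, 115.8 and 187.6 CPM in the same order. In each of both strands ZSWIM8 KO had the highest of the 4 means.

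The next 3p strand, miR-301b-3p, had 91.4 CPM with sgNT, 96.1 with sgCYRANO, 95.6 for WT and 134.5 for ZSWIM8 KO. The last, miR-301a-3p, had 6.57, 6.45, 5.67 and 7.30 CPM, which at the group totals is about 22 to 52 reads per group. It was the 1 member of 8 under 10 CPM.

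Among the 5p strands, miR-130b-5p exceeded every other member. It had group means of 6955 CPM with sgNT, 6921 with sgCYRANO, 6843 for WT and 6250 for ZSWIM8 KO, and ranked 18 among all microRNAs of each table. The strand miR-301a-5p had 43.1, 56.0, 54.1 and 70.1 CPM in the same order. The strand miR-454-5p had 26.5, 31.0, 26.2 and 30.3 CPM, and miR-301b-5p had 11.5, 14.7, 17.6 and 19.5 CPM.

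The order of the 8 strands was the same in all 4 groups, from miR-130b-5p through miR-130b-3p, miR-454-3p, miR-301b-3p, miR-301a-5p, miR-454-5p and miR-301b-5p to miR-301a-3p. The matched strands have 21 to 23 bases. Neighbours in the order were not tested against each other, since no spread over libraries was at hand, and how well each sequence was captured was not tested. The closest pair among the 3p strands was miR-454-3p and miR-301b-3p in WT, at 115.8 and 95.6 CPM, or about 441 and 364 reads. Levels of sgNT and sgCYRANO come from another table than those of WT and ZSWIM8 KO, and no test was made across tables.

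**Figure D1:**
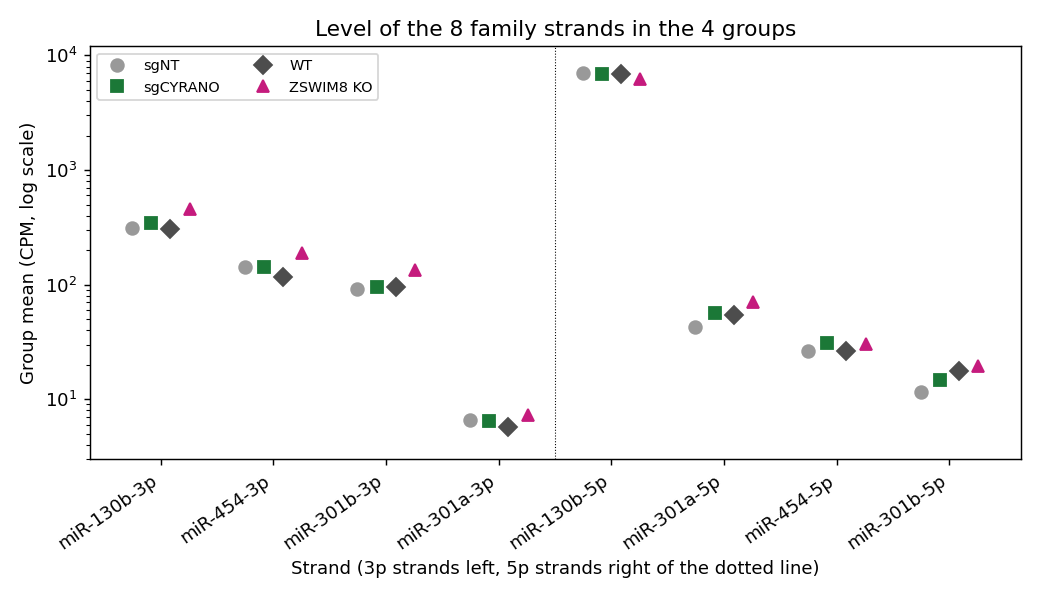
Group mean of each family strand in CPM, on a log scale, for sgNT, sgCYRANO, WT and ZSWIM8 KO; each point is the mean of 3 libraries, without error bars because single libraries were not used. The strand miR-130b-5p lies between 6250 and 6955 CPM and miR-301a-3p between 5.67 and 7.30 CPM, and each 3p strand has its highest mean in ZSWIM8 KO.

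The hairpins differed in which strand was the more abundant. For miR-130b the 5p strand exceeded the 3p strand 22.1-fold in sgNT, 20.0-fold in sgCYRANO, 22.3-fold in WT and 13.8-fold in ZSWIM8 KO. For miR-301a the 5p strand was also the higher, 6.56-fold in sgNT, 8.68-fold in sgCYRANO, 9.55-fold in WT and 9.60-fold in ZSWIM8 KO. The miR-301b and miR-454 hairpins had the opposite order. Their 3p strands exceeded the 5p strands 5.44-fold to 7.92-fold for miR-301b and 4.41-fold to 6.20-fold for miR-454. As counted, hairpins of the same locus therefore differed, since MIR130B neighbours MIR301B and MIR454 neighbours MIR301A. For miR-301a the order rests on a 3p strand of 5.67 to 7.30 CPM. The split of reads between that strand and miR-301b-3p is uncertain, so the order of both hairpins is too.

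Loss of ZSWIM8 was compared with WT to ask which microRNAs depend on it, and the family 3p strands miR-130b-3p and miR-454-3p rose. The strand miR-454-3p, which went from 115.8 to 187.6 CPM, had a log2 fold change of 0.70 ± 0.18 in the authors' deposited table (edgeR, adjusted p = 0.00242), with a 95% interval of 0.34 to 1.05. For miR-130b-3p, at 306.7 and 453.4 CPM, the authors' deposited table gave 0.56 ± 0.14 (edgeR, adjusted p = 0.00164), with an interval of 0.28 to 0.84. These are changes of 1.62-fold and 1.48-fold. They were 2 of 8 family strands past an adjusted p of 0.05, both higher, where 9.91% of all 868 tested microRNAs passed and 4.72% passed as higher. Among microRNAs at 10 CPM or more, 12.5% passed as higher.

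The other members did not pass in ZSWIM8 KO. In the authors' deposited table miR-301b-3p had 0.49 ± 0.20 (edgeR, adjusted p = 0.0912), with an interval of 0.11 to 0.88. The scarce miR-301a-3p had 0.36 ± 0.46 in the authors' deposited table, and its interval from -0.55 to 1.26 holds the changes of the other 3p strands as well as 0. Adjusted again without microRNAs under 10 CPM, miR-301b-3p passed (adjusted p = 0.0398). All 4 family 3p strands thus had positive values, as did 54.1% of all microRNAs tested and 60.5% of those at 10 CPM or more. Their values had a median of 0.53 against 0.08 over all microRNAs tested and 0.08 over the 126 3p strands at 10 CPM or more.

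None of the 5p strands passed in ZSWIM8 KO. In the authors' deposited table miR-130b-5p had -0.13 ± 0.09 (edgeR, adjusted p = 0.453), miR-301a-5p 0.37 ± 0.24, miR-454-5p 0.21 ± 0.31 and miR-301b-5p 0.15 ± 0.35. The value of miR-301a-5p was slightly above that of its own 3p strand, and those of the other three 5p strands were below their 3p partners. The median of the 5p strands was 0.18, against 0.16 over the 141 5p strands at 10 CPM or more. The abundant miR-130b-5p was the 1 family strand with a negative value in this comparison. Of the 4 erythroid marker strands 3 also had higher means in ZSWIM8 KO than in WT without passing the test, with 956.3 against 574.5 CPM for miR-451a, 239.1 against 119.4 for miR-144-3p and 492.4 against 360.1 for miR-144-5p, while miR-486-5p had 13387 against 14449. Their part in the family's values was not tested.

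The median change of all microRNAs at 10 CPM or more was 0.13 in ZSWIM8 KO. Relative to it, miR-454-3p had 0.57 and miR-130b-3p 0.43, both still past the threshold (adjusted p = 0.0215 and 0.0260), and miR-130b-5p had -0.26 and passed as lower (adjusted p = 0.0337). Among the 304 microRNAs at 10 CPM or more, ordered from the largest log2 fold change down, miR-454-3p stood at place 46, miR-130b-3p at 66 and miR-301b-3p, which did not pass, at 81. In the opposite reading of the fold changes these places are 259, 239 and 224. The F and p of both called strands imply about 164.1 denominator degrees of freedom, far more than the 4 that 6 libraries in 2 groups leave, so the variance was largely shared between microRNAs. The errors of the 8 strands (from the deposited F) were 0.879 to 0.978 times the median of their 50 neighbours in abundance. Read with 4 degrees of freedom, the deposited F of neither rise passed (edgeR's F, adjusted p = 0.316 for both). That F itself rests on the shared variance, so the spread of each strand over its own libraries remains unknown.

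**Figure D2:**
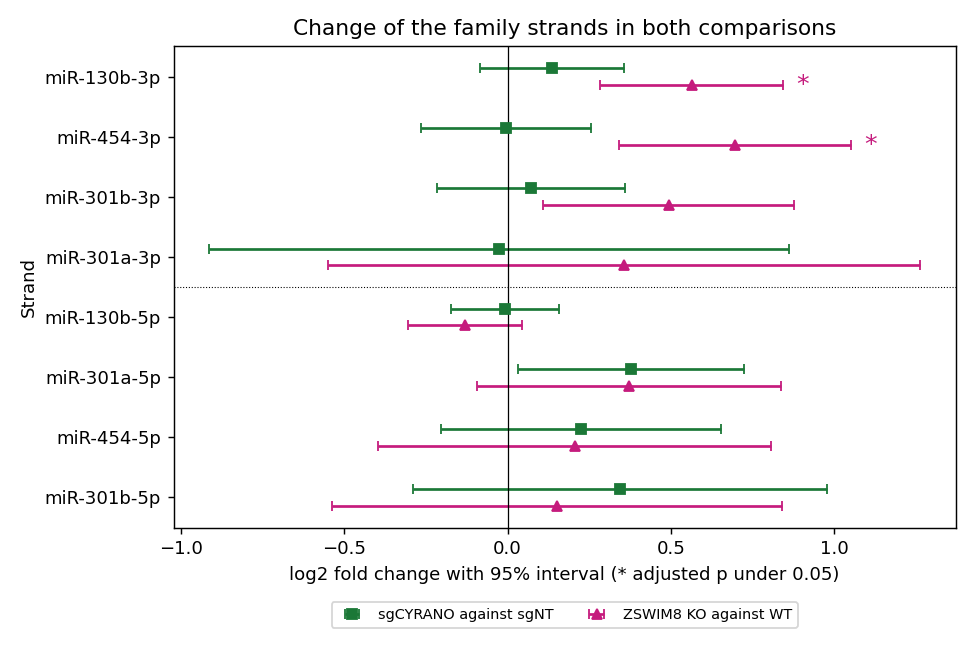
Log2 fold change of each family strand with its 95% interval, for sgCYRANO against sgNT and ZSWIM8 KO against WT; the 3p strands stand above the dotted line, and a star marks an adjusted p under 0.05. Stars stand at miR-130b-3p (0.56) and miR-454-3p (0.70) in ZSWIM8 KO, and no strand has a star in sgCYRANO.

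Summed over the 4 members, the level of the seed AGUGCAA was 554.7 CPM with sgNT, 589.7 with sgCYRANO, 523.7 for WT and 782.9 for ZSWIM8 KO. The sum in ZSWIM8 KO was 1.49 times that in WT, and in sgCYRANO 1.06 times that in sgNT. The make-up of the sum hardly varied. The share of miR-130b-3p lay between 56.7% and 58.6%, that of miR-454-3p between 22.1% and 25.7%, that of miR-301b-3p between 16.3% and 18.2%, and that of miR-301a-3p between 0.932% and 1.18%. No test was made of the sum, which has no spread over libraries.

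Disruption of CYRANO was compared with the non-targeting guide to ask which microRNAs respond to it, and no family strand passed. By edgeR 0 of 8 had an adjusted p under 0.05, where 0.119% of the 837 tested microRNAs passed, which is miR-7-5p alone. At an unadjusted p under 0.05 there was 1 of 8, miR-301a-5p, against 5.85% of all microRNAs tested. In the authors' deposited table miR-130b-3p had 0.14 ± 0.11 (interval -0.09 to 0.36), miR-454-3p -0.01 ± 0.13 (interval -0.27 to 0.25), miR-301b-3p 0.07 ± 0.15 (interval -0.21 to 0.36) and miR-301a-3p -0.03 ± 0.45 (interval -0.91 to 0.86). For the first 3 of these the intervals end below 0.56, the value of miR-130b-3p in ZSWIM8 KO. The interval of the scarce miR-301a-3p holds that value. The 0.56 has its own interval, 0.28 to 0.84, which overlaps those of miR-130b-3p and miR-301b-3p in sgCYRANO. All these intervals come from the deposited p-values, not from the spread of each strand over its libraries.

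The 5p strands did not pass in sgCYRANO either. The authors' deposited table gave 0.38 ± 0.18 for miR-301a-5p (edgeR, unadjusted p = 0.0328, adjusted p = 0.816), 0.34 ± 0.32 for miR-301b-5p, 0.22 ± 0.22 for miR-454-5p and -0.01 ± 0.08 for miR-130b-5p. The value of miR-301a-5p was nearly the same in ZSWIM8 KO, at 0.37 ± 0.24.

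The difference between both comparisons, which share no libraries, was tested directly (normal test of the difference of the log2 fold changes, adjusted over the 753 microRNAs in both tables). The change of miR-454-3p was larger in ZSWIM8 KO than in sgCYRANO by 0.70 ± 0.22 (adjusted p = 0.0315), with an interval of 0.26 to 1.14. It was the 1 family strand of 8 to pass, where 6.64% of all microRNAs did, and it did not pass after each comparison was centred on its median (0.55, adjusted p = 0.133). For miR-130b-3p the difference was 0.43 ± 0.18 (adjusted p = 0.167) and for miR-301b-3p 0.42 ± 0.24 (adjusted p = 0.419). For the 5p strands it lay between -0.19 and -0.01, with adjusted p-values of 0.767 or more. The rise of miR-130b-3p in ZSWIM8 KO is therefore not shown to differ from its value in sgCYRANO.

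The strands of a hairpin come from the same precursor, and their changes were compared within each hairpin. The normal test was adjusted over 188 hairpins in ZSWIM8 KO whose strands share a name apart from the ending 3p or 5p. Strands whose names differ by a further number, such as miR-7-5p and miR-7-1-3p, were not paired. The errors of both strands were taken as independent, although both were measured in the same libraries, and whether they vary together was not tested. In ZSWIM8 KO the 3p strand of miR-130b changed by 0.69 ± 0.17 more than the 5p strand (adjusted p = 0.00169), with an interval of 0.37 to 1.02. This was the fourth smallest p of these 188 hairpins, of which 3.72% passed. The rank leaves out unpaired strands, such as miR-7-5p (2.35) and miR-7-1-3p (-0.78), or miR-92a-3p (-0.24) and miR-92a-1-5p (-1.05). Their gaps were not tested. The miR-454 hairpin had a difference of 0.49 ± 0.36 (adjusted p = 0.780), the miR-301b hairpin 0.34 ± 0.40 (adjusted p = 0.930) and the miR-301a hairpin -0.01 ± 0.52 (adjusted p = 0.994). The intervals of the miR-454 and miR-301b hairpins, from -0.21 to 1.19 and from -0.45 to 1.13, hold the difference of miR-130b as well as 0. So does that of miR-301a, which begins at -1.03. In these hairpins the 5p strands or, for miR-301a, the 3p strand are scarce.

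In sgCYRANO no family hairpin showed a strand difference. By the same normal test 0 of 180 hairpins paired in this way passed, 0%. An unadjusted p under 0.05 was found for 6, with no family hairpin among them. The miR-130b hairpin had 0.14 ± 0.14 (interval -0.13 to 0.42), against -0.23 ± 0.26 for miR-454, -0.27 ± 0.36 for miR-301b and -0.40 ± 0.49 for miR-301a.

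**Figure D3:**
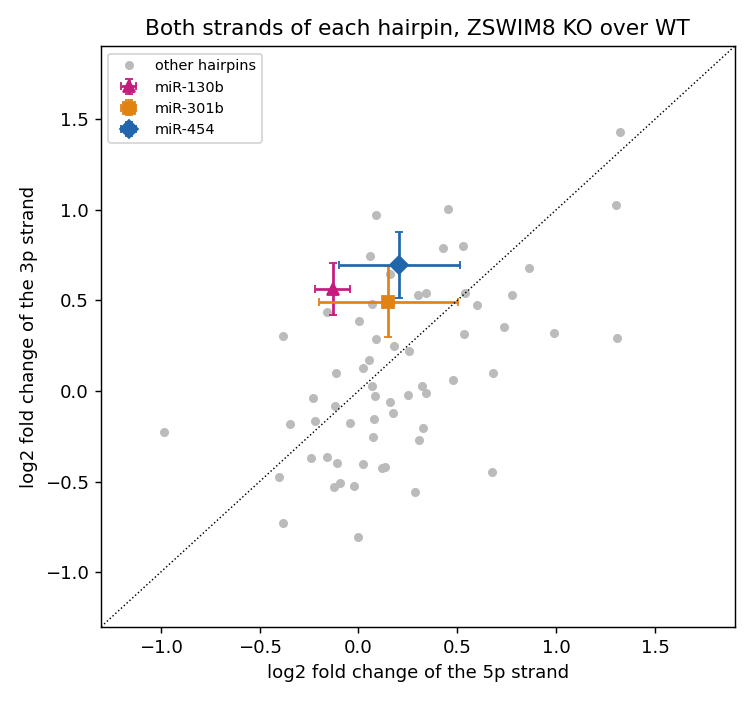
Log2 fold change of the 3p strand against that of the 5p strand in ZSWIM8 KO over WT, for 64 hairpins. These are the hairpins paired by strand name with both strands at 10 CPM or more. Bars on the family hairpins are standard errors, and the dotted line marks equal change. The miR-130b hairpin lies above the line, at 0.56 for the 3p and -0.13 for the 5p strand; miR-301a is left out because its 3p strand is under 10 CPM.

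Strands whose seeds share 6 bases with that of the family, shifted along it, were set beside it as the sequences most like its own. In ZSWIM8 KO they went both ways. Among the 3 strands with the seed CAGUGCA there were 2 rises, with 0.43 ± 0.07 for miR-148a-3p, 0.51 ± 0.10 for miR-148b-3p and 0.05 ± 0.23 for miR-152-3p in the authors' deposited table (edgeR, adjusted p = 4.31e-08, 3.02e-05 and 0.944). Both strands with the seed GUGCAAA fell, by 0.35 ± 0.10 for miR-19a-3p and 0.42 ± 0.11 for miR-19b-3p in the authors' deposited table (edgeR, adjusted p = 0.0106 and 0.00242). In sgCYRANO 0 of the 6 shifted-seed strands passed by edgeR, with the lowest adjusted p, 0.816, for miR-152-3p at -0.35 ± 0.16 in the authors' deposited table. Of all microRNAs tested in ZSWIM8 KO 4.72% passed as higher and 5.18% as lower. Of the 126 3p strands at 10 CPM or more, 18 passed as higher and 14 as lower.

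**Figure D4:**
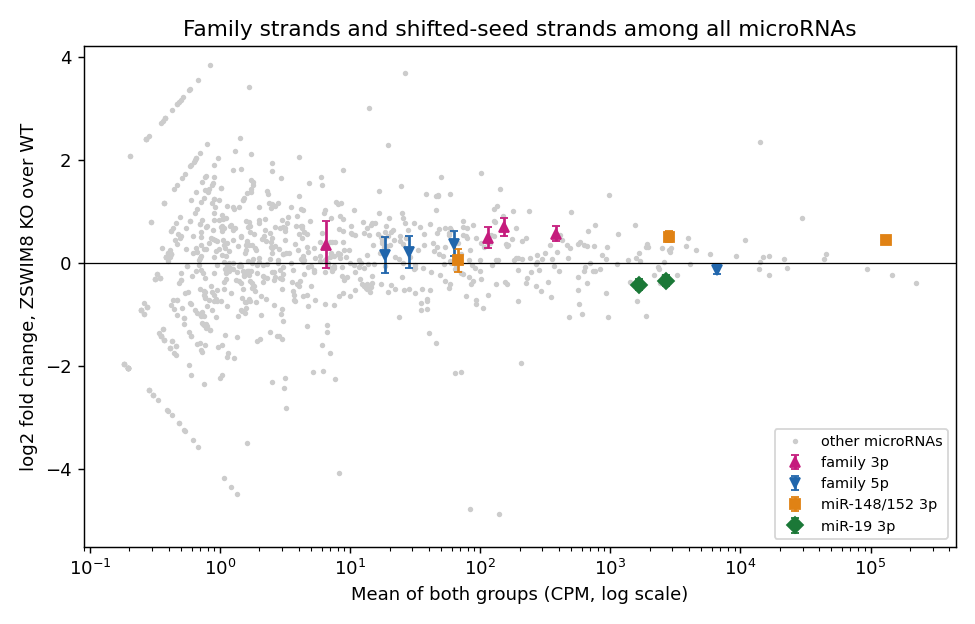
Log2 fold change in ZSWIM8 KO over WT against the mean of both groups in CPM, on a log scale, for all 868 microRNAs; bars on the marked strands are standard errors. The family 3p strands lie between 0.36 and 0.70, the family 5p strands between -0.13 and 0.37, and the miR-19 strands at -0.35 and -0.42.

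MicroRNAs known or reported as substrates of target-directed decay or as sensitive to ZSWIM8 were set beside these values. The list was chosen with earlier results of these data known, so its counts describe it and are not independent evidence. In ZSWIM8 KO 4 of 11 measured members of this list rose, 2 fell and 5 were not called. Of all microRNAs tested 4.72% passed as higher and 5.18% as lower, but most list members are at 10 CPM or more. At that level 12.5% of microRNAs passed as higher, and 14 of 126 3p and 14 of 141 5p strands passed as lower. The list had a median of 0.45, against 0.08 over all microRNAs tested. Its falls were larger than any of its rises, with -4.76 ± 0.48 for miR-221-3p and -4.88 ± 0.58 for miR-222-3p in the authors' deposited table (edgeR, adjusted p = 2.71e-20 and 5.87e-15). In sgCYRANO 1 rose and 10 did not pass, with a median of -0.16. The smallest of the 4 rises was that of miR-503-5p, a microRNA that acts on cell cycle genes, at 0.82 ± 0.23 in the authors' deposited table. The values of miR-454-3p and miR-130b-3p lie below all 4 of these rises and above the list's median of 0.45. These gaps were not tested.

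The microRNAs whose pair of changes lay nearest to that of each member were found among 293 others at 10 CPM or more in both tables, by distance over the 2 log2 fold changes. For miR-130b-3p these were miR-3074-5p, miR-548h-5p and let-7d-5p, at distances of 0.01 to 0.04. For miR-454-3p they were miR-127-3p, miR-744-5p and miR-766-3p, at 0.07 to 0.09. For miR-301b-3p they were miR-877-3p, miR-3613-5p and miR-144-5p, at 0.03 to 0.04. Of the family, miR-454-5p was among the 3 nearest of miR-301b-5p, at 0.13, and no 3p strand was among the 3 nearest of another member.

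Matches to the family seed were sought in CYRANO, annotated as OIP5-AS1. The DNA letters TTGCACT, which pair with bases 2 to 8, occurred 0 times in its 10 transcripts of GENCODE 29, on the transcript strand. Among 1234 other transcripts within 10% of the length of the longest, 8829 bases, 47.6% held them. Matches to bases 2 to 7 of the seed numbered 3 in the longest transcript.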

How the data were processed

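Total small RNA of 12 K562 libraries was extracted with a miRNeasy kit, and libraries came from a NEBNext kit, per the labels' protocols. As tools of the authors, the submitters' processing notes list FastQC 0.11.2, bcl2fastq, STAR, featureCounts and edgeR with the build hg19, without roles. The data were the authors' deposited tables of 2 comparisons. Per the file headers, each row holds a log2 fold change, a mean log2 CPM, an F statistic (a score) and a p-value before and after adjustment. Counts per library were 1 possibility in the design, and for tables of comparisons it took the deposited tests as main.

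Adjusting the deposited p-values over all rows gave the deposited adjusted ones within 5.5e-08 and 1.092e-06. Group means were recovered by inverting the mean log2 CPM (prior count 2) and the log2 fold change (prior count 0.125), and summed to 1000000 CPM in all 4 groups. Library totals were read from the CPM worth of 1 read. They accounted for all of the 220, 227, 241 and 208 group means whose 3 libraries sum to under 3 CPM, within 0.0015 CPM. The members' lowest group mean is about 22 reads, and how much of each standard error is counting error was not tested.

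A standard error is the log2 fold change divided by the normal deviate that its deposited p gives, and 95% intervals follow. Strand and comparison differences were tested against a normal distribution, with errors taken as independent and p-values adjusted by Benjamini-Hochberg. Calculations used Python 3.11.15, numpy 2.4.6, scipy 1.17.1 and pandas 2.3.3, and were tested on simulated data. The deposited p-values rest on a variance largely shared between microRNAs, not on each strand's own spread over its triplicates.

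Strands named were all family members, shifted-seed strands at 10 CPM or more, the 3 nearest patterns of members and miR-7-5p. The miR-503-5p, miR-221-3p and miR-222-3p strands of the decay list and the marker strands named were chosen after their values were seen. Members and lists were chosen with earlier results of these data known. Alternatives were a 10 CPM minimum, centring on the median, 4 degrees of freedom and errors from the deposited F.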

Additional observations from a re-analysis of the deposited data

How the results depend on the processing

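No paired analysis was possible because the tables hold no values of single libraries. For the same reason left-out libraries, other count tools and other normalizations were not run. Of 89 alternative values for the family, 81 were classed as the same, which for changes and differences means the same direction and side of the threshold. Among them is the count of called strands in ZSWIM8 KO, which rose from 2 to 3 without microRNAs under 10 CPM and after centring. Only centring alters a change or difference itself, so under the other alternatives no direction could turn. The count of 81 therefore does not measure how stable the results are. With 4 denominator degrees of freedom the count of family strands past the threshold in ZSWIM8 KO fell from 2 to 0 (2 at an unadjusted p under 0.05 by edgeR's F), since miR-130b-3p (0.56) and miR-454-3p (0.70) had adjusted p-values of 0.316. Under the other alternatives their adjusted p-values stayed under 0.05. Centred on the median, the larger change of miR-454-3p in ZSWIM8 KO than in sgCYRANO, 0.55, was not past the threshold (adjusted p = 0.133). The same centring turned the sign of 2 values near 0 in sgCYRANO, to 0.015 for miR-130b-5p and 0.016 for miR-454-3p. Calls gained were miR-301b-3p in ZSWIM8 KO without microRNAs under 10 CPM and, after centring, miR-130b-5p as lower. The strand difference of miR-130b in ZSWIM8 KO passed under both of its alternatives, a 10 CPM minimum and errors from the deposited F. Neither alters the difference itself (0.69). The 10 CPM minimum also kept its error of 0.168, and the error from F was 0.165. The reading with 4 degrees of freedom was not applied to strand differences or to differences between comparisons. How they would stand under it is therefore unknown. miR-301a-3p has no value with the 10 CPM minimum.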
